A study of Mus musculus with 6 samples.

Results

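Long intergenic noncoding RNA (lincRNA) genes were described by their acetylation at lysine 5 of histone H4 (H4K5ac) in the mouse hippocampus. They were all genes that the GENCODE annotation of mm9 (NCBIM37) gives the type lincRNA on chromosomes 1 to 19. There were 1232 of them among 34653 annotated genes, and 2 carried the same symbol, which left 1231 symbols. They were split by whether the transcription start site (TSS) of a protein_coding gene lay within 5 kb. A coding TSS lay that near to 684 lincRNA genes, called near here, and to none of the remaining 548, called distal. This rule reads the annotation alone.

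Chromatin came from the hippocampus of male mice, labelled as C57/BL6 (C57Bl6/J in the methods of the study) and as aged 6 months. Fear-conditioned mice (FC) had received foot shocks in a context, and the context-only control mice (CON) had been handled and exposed to it in the same way without a shock. By the account of the study, training ran on consecutive days. Tissue was taken soon after a memory test on the next day, when both groups were re-exposed to the context. Each group had 3 libraries, from chromatin pulled down by an H4K5ac antibody (H4K5ac-ChIP), from a mock pull-down by IgG (IgG-IP) and from genomic DNA that was not precipitated (input), which makes 6 libraries. The hippocampal samples of a group had been cross-linked individually, and the labels give no animal for a library. Without replicates the variation among mice could not be measured, and groups were compared without a test. All intervals below are 95% intervals that cover counting error only, and read counts are not counts of independent molecules. Whole hippocampus holds many cell types, and fewer cells with the mark cannot be told apart from less of it per cell.

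LincRNAs are transcripts that carry no long open reading frame, are often spliced and polyadenylated, and are on the whole made at lower levels and in fewer tissues than mRNAs. Many start next to a coding gene and run away from it, so that both transcripts leave 1 shared CpG-rich promoter in opposite directions, an arrangement called divergent. Several act on neighbouring genes or hold chromatin-modifying complexes, and others mainly serve as the precursors of small RNAs that lie in their introns or exons. H4K5ac is placed by histone acetyltransferases of active chromatin, is read by bromodomain proteins and is known from the promoters and bodies of transcribed genes.

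The name intergenic did not hold for all of these genes. A protein_coding gene body overlapped 736 of them (59.7%) by at least 1 bp on either strand, 450 near and 286 distal. Among the near genes 336 were divergent, and 335 lay on the opposite strand with the coding TSS downstream of their own start. Another 9 had the coding TSS upstream on the same strand and 4 had it downstream on the same strand. All 335 opposite-strand genes overlapped a coding gene body. Whether each began inside the coding gene and ran back across its promoter was not checked. The median distance to the coding TSS was 169.5 bp for divergent genes, 711 bp for opposite-strand genes and 32299.5 bp for distal genes. The windows of near genes therefore share sequence, and reads, with coding genes. The 2 kb upstream of a divergent lincRNA cover the start of its coding neighbour where that start is no farther away, as it is for most of them, but not for Rian or 1700016P03Rik, at 3615 and 3041 bp. When the start of any coding transcript was taken as the neighbour, 80 further lincRNA genes became near.

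The members had a median length of 8339 bp and 3 exons, against 5920 bp and 3 exons for all annotated genes and 16257.5 bp and 7 exons for coding genes without a coding neighbour. A CpG-rich start, defined as a GC content of at least 50% and an observed over expected CpG ratio of at least 0.6 in the 1 kb around the TSS, was present in 412 near genes (60.2%), 244 divergent genes (72.6%) and 94 distal genes (17.2%), and in 31.1% of all annotated genes. The sequences of 6 starts show the range. They span 250 bases before to 50 bases after the TSS, are written 5′ to 3′ on the strand of the gene from NCBIM37, and have every CpG in capitals. Tug1, a broadly expressed RNA, and 9130206I24Rik, which gave the largest ratio between the groups, are divergent. Dleu2, a broadly expressed precursor RNA, and Miat, a neuronal nuclear RNA, are distal and CpG-rich. Meg3, the maternally expressed RNA of the Dlk1-Dio3 imprinted region, and Gm14488, whose promoter held the most H4K5ac-ChIP reads, are distal and below the CpG limits. They lie at chr11:3548766-3549065 on the minus strand (Tug1), chr4:114581612-114581911 on the plus strand (9130206I24Rik), chr14:62301113-62301412 on the minus strand (Dleu2), chr5:112657919-112658218 on the minus strand (Miat), chr12:110778961-110779260 on the plus strand (Meg3) and chr2:30575528-30575827 on the minus strand (Gm14488), and none overlaps an exon of a coding transcript.
Tug1: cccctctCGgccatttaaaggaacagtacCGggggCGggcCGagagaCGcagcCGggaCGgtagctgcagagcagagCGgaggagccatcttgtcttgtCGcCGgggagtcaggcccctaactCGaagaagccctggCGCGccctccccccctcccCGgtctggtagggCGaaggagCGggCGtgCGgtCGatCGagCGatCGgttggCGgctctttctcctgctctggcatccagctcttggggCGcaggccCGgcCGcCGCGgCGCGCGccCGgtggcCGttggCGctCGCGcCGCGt
9130206I24Rik: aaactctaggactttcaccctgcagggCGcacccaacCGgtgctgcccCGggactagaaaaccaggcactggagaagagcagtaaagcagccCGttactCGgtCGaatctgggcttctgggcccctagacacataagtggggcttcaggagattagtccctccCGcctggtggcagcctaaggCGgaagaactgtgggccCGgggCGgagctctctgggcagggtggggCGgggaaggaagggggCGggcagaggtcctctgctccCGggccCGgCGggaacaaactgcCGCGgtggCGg
Dleu2: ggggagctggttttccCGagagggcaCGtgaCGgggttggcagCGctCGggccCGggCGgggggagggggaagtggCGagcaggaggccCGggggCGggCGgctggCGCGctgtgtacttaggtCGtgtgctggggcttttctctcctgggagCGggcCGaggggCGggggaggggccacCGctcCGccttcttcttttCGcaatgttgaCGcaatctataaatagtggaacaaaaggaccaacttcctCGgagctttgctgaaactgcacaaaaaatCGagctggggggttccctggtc
Miat: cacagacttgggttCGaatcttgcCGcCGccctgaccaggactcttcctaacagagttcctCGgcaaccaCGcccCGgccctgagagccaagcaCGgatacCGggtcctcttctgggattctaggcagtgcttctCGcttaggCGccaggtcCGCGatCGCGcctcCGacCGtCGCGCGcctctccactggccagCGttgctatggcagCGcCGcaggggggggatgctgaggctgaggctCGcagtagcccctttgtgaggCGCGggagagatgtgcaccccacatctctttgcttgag
Meg3: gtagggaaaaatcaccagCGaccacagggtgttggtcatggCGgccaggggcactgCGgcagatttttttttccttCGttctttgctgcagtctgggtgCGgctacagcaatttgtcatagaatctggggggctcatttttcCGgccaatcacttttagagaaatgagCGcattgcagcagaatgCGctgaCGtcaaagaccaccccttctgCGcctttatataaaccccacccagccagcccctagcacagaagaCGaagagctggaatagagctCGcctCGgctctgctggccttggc
Gm14488: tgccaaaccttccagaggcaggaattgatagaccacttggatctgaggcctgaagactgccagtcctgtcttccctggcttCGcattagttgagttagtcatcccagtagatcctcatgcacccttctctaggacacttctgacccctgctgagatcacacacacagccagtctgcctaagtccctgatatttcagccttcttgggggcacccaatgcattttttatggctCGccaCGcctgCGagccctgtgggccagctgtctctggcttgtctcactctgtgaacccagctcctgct

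Tug1 holds 38 CpGs in these 300 bases and Gm14488 holds 4. The median was 25 for divergent lincRNA genes, 6 for distal ones and 6 for all annotated genes. Letters of 4 promoter motifs were searched on both strands of the same window in every gene. GGGCGG, the GC box, was found in 71.1% of divergent, 26.1% of distal and 31.5% of all starts. TATAAA was found in 3.57% of divergent, 12.6% of distal and 15.8% of all starts, and CCAAT in 38.7%, 35.2% and 38.0%. TGACGTCA, the palindromic cAMP response element, was found in 2.44% of lincRNA starts and 1.64% of all starts. Of the sequences shown, Meg3 holds all of these but the GC box, and Dleu2 holds TATAAA and the GC box. None of the 4 motifs contains another, and a match is a description of the sequence only.

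Depth set how firmly single genes could be described. The libraries held 14023183 to 44394551 reads on chromosomes 1 to 19, with the IgG-IP libraries the shallowest. Over the 1232 promoters, taken as the 2 kb upstream of the TSS, the median was 42 reads in FC H4K5ac-ChIP, 9 in FC IgG-IP and 47 in FC input, and 45, 12 and 28 in the CON libraries. Between 8 and 23 promoters held no read in a given library. Counts and medians of ratios were therefore taken only over genes with at least 20 reads in the pair of libraries compared. A named gene under this minimum is given with its counting interval. The FC to CON ratios of IgG-IP and of input were taken instead over genes with at least 20 reads in the H4K5ac-ChIP libraries of FC and CON together. As a check of the tissue, the bodies of 8 neuronal or hippocampal genes had median log2 H4K5ac-ChIP to IgG-IP ratios of 0.96 (FC) and 0.88 (CON). Single ones ran from 0.31 to 1.29 in FC and from 0.25 to 2.06 in CON. Medians were 0.81 and 0.72 for 3 astrocyte genes, 1.08 and 0.82 for 3 oligodendrocyte genes and 0.83 and 0.51 for 2 microglia genes. The 7 genes of other tissues had -0.14 and 0.56, with Acta1, a skeletal muscle actin, the highest of these at 1.45 and 1.82. Myh6 and Apoa1 of that list reached 0.96 and 0.97 in FC, so the lists overlapped.

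Both classes of lincRNA promoter held more H4K5ac-ChIP than IgG-IP reads after scaling, and the near promoters had the higher ratio, at H4K5ac-ChIP levels that were equal to those of the distal ones in FC and slightly lower in CON. The median level of near promoters was 0.68 reads per kb, scaled to the library's reads on chromosomes 1 to 19 (RPKM), in FC H4K5ac-ChIP against 0.321 in FC IgG-IP, and 0.626 against 0.346 in CON. Distal promoters had 0.68 against 0.357 in FC and 0.64 against 0.377 in CON, so that the classes differed in IgG-IP, which was lower at near promoters. As log2 ratios per gene, the medians for near promoters were 1.15 in FC and 0.92 in CON, those for distal promoters 0.89 and 0.82, and those of all annotated genes, lincRNA genes included, 0.82 and 0.66. At least 2-fold more H4K5ac-ChIP than IgG-IP was found at 372 of 658 near promoters in FC (56.5%) and at 295 of 652 in CON (45.2%). It was found at 234 of 509 distal promoters in FC (46.0%) and at 219 of 514 in CON (42.6%). The share of all genes past this limit was 43.9% in FC and 36.8% in CON, so the distal share in FC was close to that background and the near share was above it. The order of the CON shares turned with reads of a mapping quality of 20 or more, at 44.8% near and 45.5% distal, and with at least 50 reads, at 53.7% and 55.4%. The same promoters recurred in part. Of 1148 lincRNA promoters with enough reads in both groups, 374 were past 2-fold in both (32.6%), which was 62.0% of those in FC and 73.2% of those in CON. Over all genes 29% were past it in both, which was 64.6% and 75.2% of those in each group, so lincRNA promoters recurred about as often as promoters in general.

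**Figure D1:**
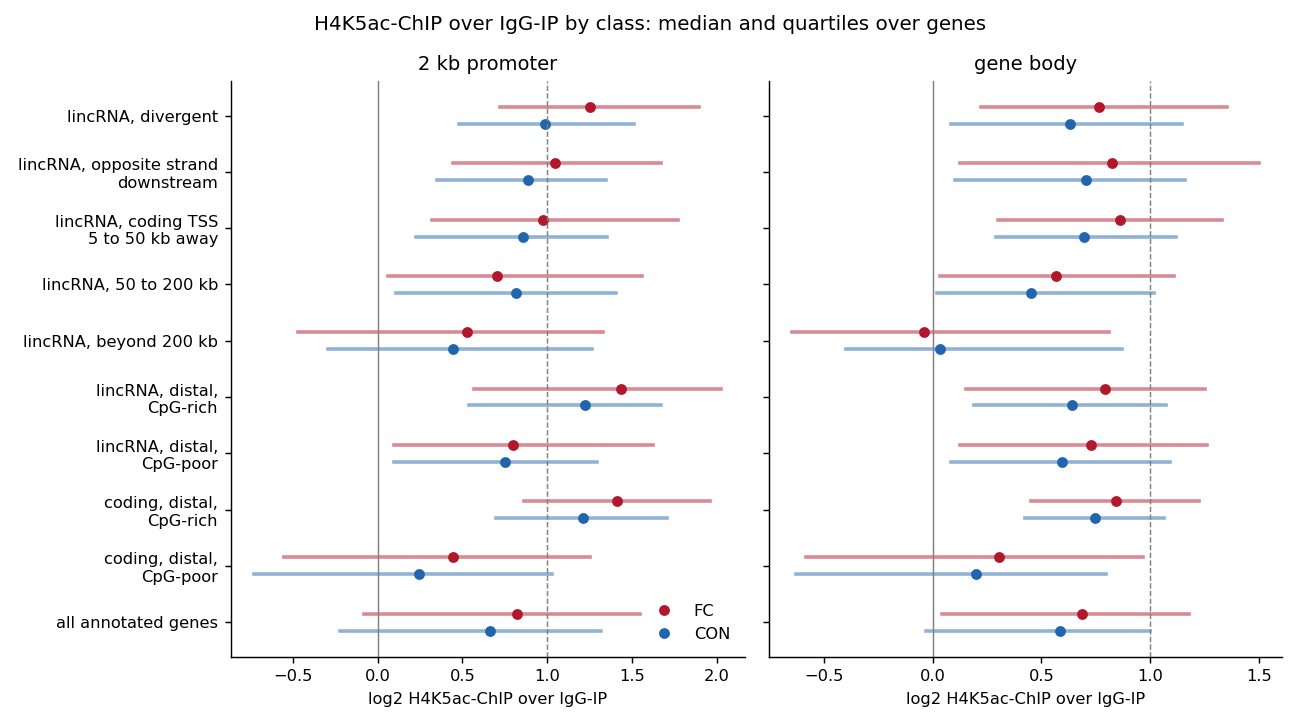
Log2 H4K5ac-ChIP to IgG-IP ratio in FC and CON for the 2 kb promoters (left) and gene bodies (right) of classes of lincRNA genes, of coding genes without a coding TSS within 5 kb and of all annotated genes, with points at the median over genes, lines across the quartiles and a dashed line at 2-fold. Of the classes drawn, distal CpG-rich lincRNA and coding promoters have the highest medians, at 1.43 and 1.41 in FC. Bodies of lincRNA genes beyond 200 kb from a coding TSS lie about level with IgG-IP, at -0.04 in FC.

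Coding genes were used as a comparison with the same split. Coding promoters with another coding TSS within 5 kb had medians of 1.26 in FC and 1.06 in CON, and coding promoters without one had 0.98 and 0.78. Near lincRNA promoters thus lay below the coding class with a neighbour in both groups, and distal ones below the coding class without one in FC and above it in CON. Single genes spread widely, with quartiles of 0.59 and 1.83 for near lincRNA promoters in FC. Divergent lincRNA promoters had medians of 1.25 and 0.99, and opposite-strand ones 1.04 and 0.89. Among near genes, those with no overlap with a coding gene had medians of 1.34 and 0.99, against 1.04 and 0.90 for those with overlap.

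With input as the control, the medians of near promoters were again above those of distal ones. The median log2 ratio of near promoters was 0.52 in FC and 0.74 in CON, that of distal promoters 0.31 and 0.64, and that of all genes 0.23 and 0.45. At least 2-fold over input was reached by 150 near promoters in FC (22.1%) and 228 in CON (33.8%), and by 88 (16.8%) and 174 (33.3%) distal promoters, where the share of all genes was 18.2% in FC and 27.4% in CON. The distal share in FC was thus under that background, and the near and distal shares in CON were nearly equal. FC was thus the higher group over IgG-IP and CON the higher over input.

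Gene bodies were lower than promoters over IgG-IP. The median log2 ratio was 0.79 in FC and 0.68 in CON for near genes and 0.74 and 0.62 for distal genes, against 0.69 and 0.59 for all genes. At least 2-fold was reached by 276 of 678 near bodies (40.7%) and 196 of 534 distal bodies (36.7%) in FC, and by 233 of 677 (34.4%) and 158 of 533 (29.6%) in CON, where the share of all genes was 33.2% in FC and 25% in CON. Over the 5 kb on either side of the TSS, near genes had medians of 0.92 and 0.81, distal genes 0.80 and 0.66, and all genes 0.55 and 0.46.

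The CpG content of the start split the distal genes further. Distal CpG-rich lincRNA promoters had median log2 ratios of 1.43 (FC) and 1.22 (CON) over IgG-IP, at least 2-fold in 53 of 86 (61.6%) and 52 of 87 (59.8%). Distal CpG-poor ones had 0.80 and 0.75, at least 2-fold in 181 of 423 (42.8%) and 167 of 427 (39.1%). Coding genes without a coding neighbour showed a wider gap between the same classes, with 1.41 and 1.21 for CpG-rich and 0.45 and 0.24 for CpG-poor promoters. Distal CpG-rich lincRNA and coding promoters thus had nearly the same medians, and distal CpG-poor lincRNA promoters lay above CpG-poor coding promoters in both groups. Near lincRNA promoters were split less by CpG content, at 1.22 and 0.90 for CpG-rich and 1.03 and 0.93 for CpG-poor ones. Among CpG-rich promoters the near class therefore lay below the distal class, and among CpG-poor ones above it, in both groups. Of the 85 distal CpG-rich lincRNA promoters with enough reads in both groups, 44 were past 2-fold in both (51.8%), against 50.7% of the CpG-rich coding promoters without a coding neighbour. The distal classes differed in IgG-IP as well. In the 1 kb upstream, with 1 read per position and strand, the 94 CpG-rich genes held 2065 H4K5ac-ChIP and 308 IgG-IP reads in FC. The 454 CpG-poor genes held 9029 and 2064. Per gene, CpG-rich starts thus had slightly more H4K5ac-ChIP reads and fewer IgG-IP reads. Over input this side was at 1.72-fold and 1.33-fold in FC and at 2.163-fold and 1.605-fold in CON. GC content also moved with the libraries themselves. Across 1231 promoters, all but that of Gm16869, Spearman's rho with GC content was 0.14 for FC and 0.01 for CON H4K5ac-ChIP. It was -0.32 for FC IgG-IP, -0.36 for CON IgG-IP, 0.18 for FC input and -0.32 for CON input, as a description across genes that share the libraries. The part of GC content in the CpG difference was not tested.

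Overlap with coding genes and distance from them were described in the same way. Distal promoters of lincRNA genes that overlapped no coding gene had medians of 0.70 in FC and 0.83 in CON, and those with overlap 1.03 and 0.82, so that the 2 groups differed in order. For bodies the values were 0.54 and 0.45 without overlap and 0.93 and 0.77 with it. The 58 distal CpG-rich genes that overlapped no coding gene had promoter medians of 1.49 and 1.31. By distance, the 348 genes at 5 to 50 kb from a coding TSS had promoter medians of 0.98 and 0.86, the 170 genes at 50 to 200 kb had 0.70 and 0.82, and the 30 genes beyond 200 kb had 0.53 and 0.44. Over input the order by distance was another in FC, at 0.31, 0.27 and 0.44, with 15.8%, 17.7% and 23.1% at 2-fold, and in CON the medians were 0.66, 0.61 and 0.46. Bodies of those 30 genes had medians of -0.04 and 0.04, about level with IgG-IP. They were long, at a median of 37860 bp.

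The level of a distal lincRNA was set beside that of its nearest coding gene as a description. Across the 348 pairs at 5 to 50 kb, Spearman's rho of the promoter RPKM was 0.34 for FC H4K5ac-ChIP, 0.31 for CON H4K5ac-ChIP and 0.08 in both IgG-IP libraries. For bodies it was 0.59 and 0.55 against 0.20 in both IgG-IP libraries. At 50 to 200 kb promoters gave 0.46 and 0.40 against 0.15 and 0.19 in IgG-IP, and bodies 0.54 and 0.57 against 0.20 and 0.27. Beyond 200 kb, over 30 pairs, the promoter values were -0.09 and -0.19 against -0.13 and -0.17, and the body values 0.28 and 0.35 against 0.06 and 0.31. These pairs share libraries and regional base composition, and some share a coding gene. The IgG-IP libraries had medians of 9 and 12 reads per lincRNA promoter, against 42 and 45 in H4K5ac-ChIP. Fewer reads lower such a rho through counting error, and the part of depth in the gap was not tested.

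Around the TSS the reads of divergent lincRNA genes lay mainly on the lincRNA side. In the profile of mean read density in bins of 100 bp, with 1 read kept per position and strand, divergent genes had their FC H4K5ac-ChIP summit of 1.10 RPKM in the bin that starts 200 bp downstream of the lincRNA TSS and a trough of 0.492 RPKM in the 100 bp upstream of it, where the shared promoter lies. In CON the summit was 1.01 RPKM at 300 bp and the trough 0.363 RPKM at -300 bp. The controls had a trough there too, of 0.173 and 0.1502 RPKM in FC and CON IgG-IP and 0.356 and 0.217 RPKM in FC and CON input. Distal genes had a low double summit, of 0.829 RPKM at -600 bp and 0.845 RPKM at 400 bp in FC, with 0.651 RPKM between them. In CON it had 0.765 and 0.726 RPKM, with 0.626 RPKM between them. Their IgG-IP libraries dipped near the TSS too, to 0.325 RPKM between 0.423 and 0.433 RPKM in FC. In CON the dip was to 0.335 RPKM between 0.446 and 0.439 RPKM. Relative to the summits, these dips were at least as deep as those of H4K5ac-ChIP. Among distal genes the CpG-rich ones had the deeper trough, of 0.455 RPKM between summits of 1.03 and 0.942 RPKM in FC. The controls of these genes had one as well, of 0.1755 RPKM between 0.453 and 0.536 RPKM in FC IgG-IP, which is relatively deeper, and of 0.328 RPKM between 0.587 and 0.637 RPKM in FC input.

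**Figure D2:**
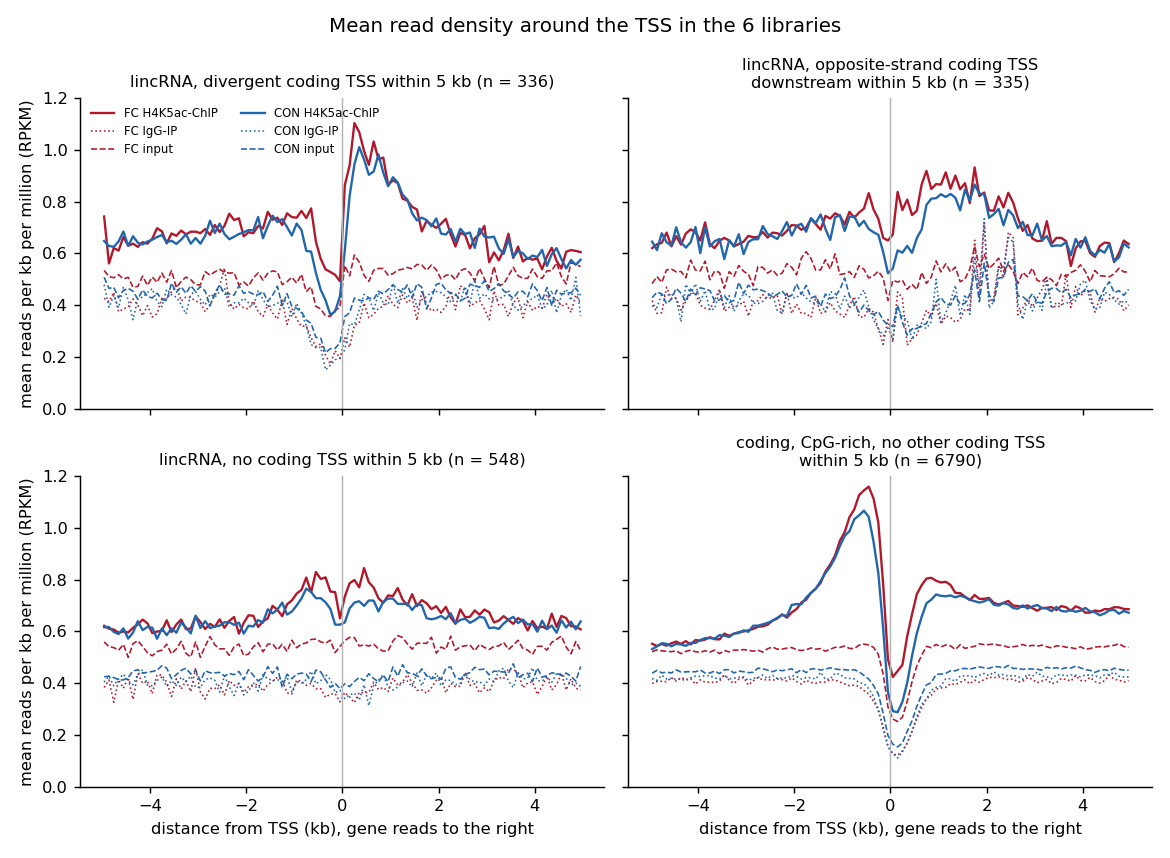
Mean read density in RPKM per 100-bp bin from 5 kb upstream to 5 kb downstream of the TSS, on the strand of the gene, for divergent, opposite-strand and distal lincRNA genes and coding genes in all 6 libraries. Divergent lincRNA genes have a trough just upstream of the TSS and a summit of 1.10 RPKM just downstream of it in FC H4K5ac-ChIP, while distal genes have a low summit on each side. The IgG-IP lines of distal genes dip near the TSS as well.

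The sides were compared by summing reads over the 336 divergent genes. FC H4K5ac-ChIP had 5604 reads in the 1 kb upstream and 8646 in the 1 kb downstream, a ratio of 1.54 (1.49 to 1.60), and CON had 5431 and 9321, a ratio of 1.72 (1.66 to 1.78). The controls leaned the same way, at 1.38 and 1.50 in FC and CON IgG-IP and 1.28 and 1.44 in FC and CON input. The H4K5ac-ChIP reads were then divided by those of each control. Over IgG-IP the downstream side was 2.78-fold (2.62 to 2.94) and the upstream side 2.48-fold (2.31 to 2.65) in FC, and 2.37-fold (2.25 to 2.49) and 2.06-fold (1.93 to 2.20) in CON, a ratio between the sides of 1.12 (1.02 to 1.22) and 1.15 (1.06 to 1.25). Over input that ratio was 1.21 (1.15 to 1.27) and 1.19 (1.13 to 1.26). Both were smaller than in the H4K5ac-ChIP reads alone. Both sides exceeded the flanks at 3 to 5 kb, which were at 1.54-fold and 1.47-fold over IgG-IP. For the 244 CpG-rich divergent genes the ratio between the sides over IgG-IP was 1.063 (0.952 to 1.188) in FC, an interval that includes 1. It was 1.180 (1.066 to 1.306) in CON, and over input 1.181 and 1.284.

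By gene, the downstream side held more H4K5ac-ChIP reads in 233 of 305 divergent genes in FC (76.4%) and 234 of 295 in CON (79.3%). Among all genes these shares were 39% and 37.1%. The counts by gene are of reads that were not divided by a control. It was at least 2-fold higher in 111 genes and lower in 9 in FC, and higher in 138 and lower in 10 in CON, where the shares of all genes were 6.79% higher and 16% lower in FC and 6.62% and 19.3% in CON. Opposite-strand lincRNA genes, with sums of 1.10 (1.06 to 1.13) and 0.996 (0.963 to 1.03), and distal lincRNA genes, with 1.00 (0.975 to 1.03) and 0.993 (0.968 to 1.02), lay much closer to 1 in the H4K5ac-ChIP reads. The controls of the opposite-strand genes leaned upstream, at 0.960 and 0.909 in FC and CON IgG-IP and 0.971 and 0.868 in FC and CON input. Over IgG-IP the downstream side of these genes was therefore the higher one, by 1.14 (1.05 to 1.24) in FC and 1.09 (1.01 to 1.18) in CON, and over input by 1.13 (1.08 to 1.19) and 1.15 (1.08 to 1.21), about as much as in divergent genes. Gm16869, a gene of this class with many IgG-IP reads, lowers the ratios over IgG-IP, and without it they were 1.278 and 1.202 over IgG-IP and 1.13 and 1.19 over input. Distal genes had 1.03 (0.965 to 1.09) and 1.08 (1.02 to 1.15) over IgG-IP and 1.01 in both groups over input. After division by the controls, an excess downstream of the lincRNA TSS was thus found in divergent and opposite-strand genes, and distal genes lay closer to 1. The side differs in kind between these classes. In opposite-strand genes the coding TSS lay downstream at a median of 711 bp (quartiles 377.5 and 1481), so the downstream 1 kb often held the coding start. The coding partners of the divergent lincRNA genes, seen from their own TSS, had 0.725 (0.701 to 0.750) and 0.672 (0.649 to 0.695), a window that shares reads with that of the lincRNA. The 6790 CpG-rich coding genes with no coding or divergent lincRNA partner had 0.656 and 0.589, so that an excess upstream of a coding start also occurred where no divergent lincRNA was annotated. Their controls leaned the same way, at 0.728 and 0.705 in IgG-IP and 0.816 and 0.736 in input, which left 0.901 (0.883 to 0.920) and 0.836 (0.821 to 0.852) over IgG-IP. Coding genes with a divergent coding partner had 0.983 and 0.976.

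**Figure D3:**
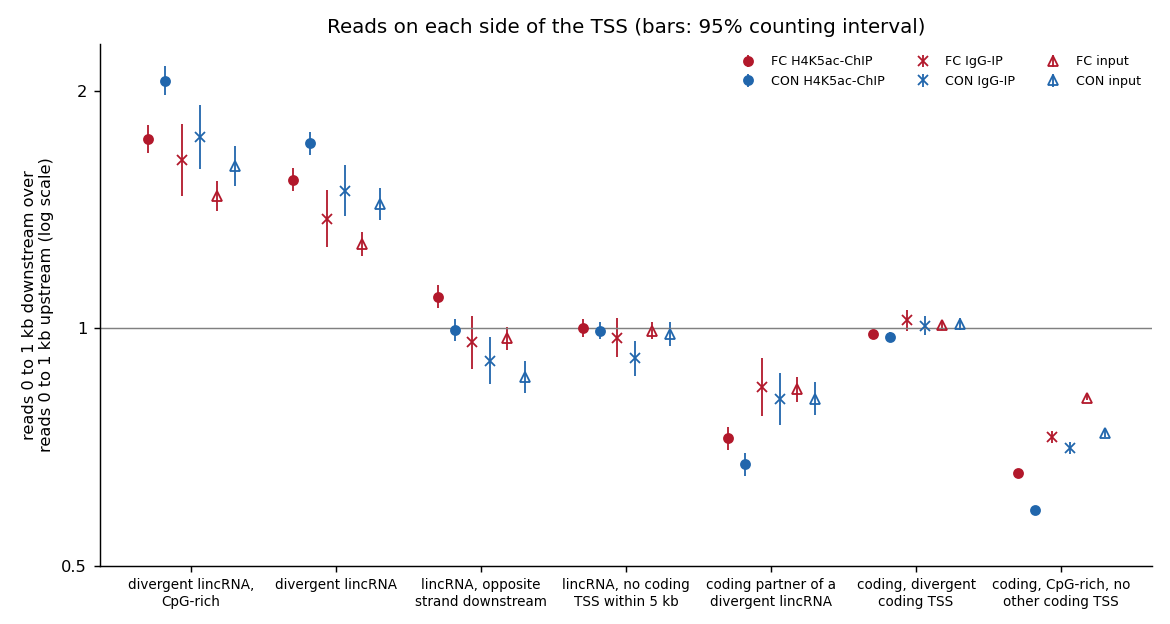
Ratio of reads in the 1 kb downstream to the 1 kb upstream of the TSS, summed over the genes of each class, in the 6 libraries, on a log axis, with exact 95% counting intervals. Divergent lincRNA genes are above 1 in every library, with H4K5ac-ChIP at 1.54 in FC and 1.72 in CON, and distal lincRNA genes are near 1.

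Listed lincRNA genes with known expression were described next. Of 29 symbols listed for neural lincRNAs, 14 were members. Their promoter medians over IgG-IP were 0.75 in FC and 0.53 in CON, and 6 were at least 2-fold in FC, 5 in CON and 3 in both. Over input the medians were -0.22 and 0.43. Of 28 symbols listed for ubiquitous lincRNAs, 9 were members, with enough reads in 8 of them in FC and in all 9 in CON. Their promoter medians were 2.11 and 1.40 over IgG-IP and 0.90 and 1.23 over input, with 6 at least 2-fold in each group and 5 in both. Of 21 symbols listed for lincRNAs of other tissues or of imprinted regions, 3 were members, with a median of -1.49 over 3 genes in FC and of -0.42 over the 2 with enough reads in CON, and none at 2-fold. The ubiquitous list was thus above the near and distal classes and the neural list below them, over at most 9 and 14 genes. The shares of all genes at 2-fold, 43.9% and 36.8%, are close to those of the neural list and under those of the ubiquitous list. Setting the median of all genes to 0 lowers ratios over IgG-IP by 0.82 in FC and 0.66 in CON at promoters and by 0.69 and 0.59 at bodies, and promoters under those values, such as C130071C03Rik and Miat in FC, then fall below 0.

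The neural list held 3 genes that carry well-known brain microRNAs. MicroRNAs pair with mRNAs through the seed, bases 2 to 8, which is in capitals in the mature sequences below (RefSeq, GRCm38.p6). Mir132 (chr11:74987167-74987267, plus strand, NCBIM37) and Mir212 (chr11:74986890-74986980, plus strand) lie in 1700016P03Rik and share 1 seed, and Mir9-2 (chr13:83878411-83878497, plus strand) lies in C130071C03Rik. Mir124a-1, a microRNA of neurons, lies in A930011O12Rik.
mmu-miR-132-3p: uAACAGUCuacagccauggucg
mmu-miR-212-3p: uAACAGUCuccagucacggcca
mmu-miR-9-5p: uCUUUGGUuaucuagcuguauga

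The promoter of 1700016P03Rik, the host of the activity-induced miR-132 and miR-212, held 43 FC and 61 CON H4K5ac-ChIP reads (0.696 and 0.868 RPKM) against 6 and 2 IgG-IP reads and 60 and 24 input reads. Its log2 ratios over IgG-IP were 1.70 (0.46 to 3.23) and 3.79 (1.87 to 6.87), and the ratio of FC to CON was -0.32 (-0.92 to 0.27). C130071C03Rik, which holds Mir9-2, a microRNA of neural progenitors, had 59 FC and 85 CON H4K5ac-ChIP reads (0.955 and 1.21 RPKM), 18 and 11 IgG-IP reads and 41 and 26 input reads, with 0.57 (-0.21 to 1.42) and 1.81 (0.90 to 2.86) over IgG-IP. Its body was 0.82 and 1.47. A930011O12Rik had 34 and 64 H4K5ac-ChIP reads, 4 and 11 IgG-IP reads and 45 and 21 input reads, with 1.95 and 1.40 over IgG-IP. At the promoter these 3 hosts had the higher H4K5ac-ChIP level in CON, each by less than 2-fold. Their ratio over input was also higher in CON, as was the median of all genes. At the body their FC level was the higher one, at 0.842 against 0.774 RPKM for 1700016P03Rik, 0.874 against 0.825 RPKM for C130071C03Rik and 0.814 against 0.584 RPKM for A930011O12Rik. The log2 ratio of FC to CON of A930011O12Rik was 0.48 (0.12 to 0.84) at the body and -0.73 (-1.37 to -0.10) at the promoter. Other neural-list genes with a miRNA gene inside mostly went the other way at the promoter. Their log2 ratios of FC to CON were 0.64 for Sox2ot, 0.32 for Meg3, 0.24 for Mirg, 0.19 for Rmst and -0.42 for Rian. The 29 lincRNA genes with a miRNA gene inside had a median of 0.06.

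Other neural genes ranged from above to below IgG-IP. Miat had 32 FC and 60 CON H4K5ac-ChIP reads, 9 and 2 IgG-IP reads and 54 and 31 input reads at its promoter, with 0.69 (-0.41 to 1.94) and 3.76 (1.85 to 6.84) over IgG-IP. The CON value rests on 2 IgG-IP reads, and the bodies, with more reads, gave 0.96 and 0.92. The log2 ratio of FC to CON of Miat was -0.72 (-1.39 to -0.08) at the promoter and 0.10 (-0.12 to 0.31) at the body. Sox2ot, which overlaps the neural stem cell gene Sox2, had 52 and 38 H4K5ac-ChIP reads, 9 and 12 IgG-IP reads and 41 and 33 input reads, with 1.39 and 0.52. 1700020I14Rik had 64 and 77, 8 and 14, and 45 and 32 reads, with 1.86 and 1.32. Nkx2-2as and Six3os1, antisense to homeobox genes of neural patterning, had 1.81 and 0.97, and 1.86 and 0.55. The Six3os1 value in FC rests on 4 IgG-IP reads (0.37 to 3.82), and over input its promoter had -0.28 and -0.18. Bodies over IgG-IP had 0.13 and -0.18 for Nkx2-2as and 0.15 and -0.59 for Six3os1. The Six3os1 body had a log2 ratio of FC to CON of 0.96 (0.63 to 1.29), short of 2-fold. Rmst, a regulator of neurogenesis that works with SOX2, had 32 H4K5ac-ChIP reads in each group against 20 and 16 IgG-IP reads, with -0.46 and -0.14, and Dlx1as, antisense to an interneuron homeobox gene, had 0.81 and 0.18.

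The 3 maternally expressed RNAs of the Dlk1-Dio3 imprinted region were low. Meg3 had 35 FC and 32 CON H4K5ac-ChIP reads, 10 and 16 IgG-IP reads and 78 and 29 input reads at its promoter, with 0.67 (-0.38 to 1.85) and -0.14 (-1.05 to 0.82) over IgG-IP. Rian, a host of box C/D snoRNAs and microRNAs, had -0.55 and -0.11, and Mirg, a microRNA host, -0.09 and -0.34. All 3 were below the medians of all genes in both groups. Their promoters had a higher input RPKM in FC than in CON, as did 77% of lincRNA promoters.

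The broadly expressed precursors were higher. Dleu2 had 60 FC and 73 CON H4K5ac-ChIP reads (0.971 and 1.04 RPKM), 6 and 10 IgG-IP reads and 44 and 21 input reads, with 2.18 (0.98 to 3.68) and 1.73 (0.76 to 2.84) over IgG-IP. Pvt1, downstream of Myc, had 82 and 62, 8 and 10, and 56 and 41 reads, with 2.22 (1.17 to 3.48) and 1.49 (0.52 to 2.62), and its FC level was 0.59 (0.10 to 1.09) above CON on the log2 scale. Its body, with 7504 and 8567 reads, gave -0.01 (-0.05 to 0.04). The snoRNA hosts Snhg4, Snhg7, Snhg12 and Gas5 had 2.16, 3.62, 2.06 and 1.35 in FC and 1.66, 1.40, 1.89 and 0.84 in CON. The Snhg7 value in FC rests on 2 IgG-IP reads. Snhg1 had 0.86 and 1.18, and Snhg5, the shallowest with 10 and 20 H4K5ac-ChIP reads, had 0.18 (-1.61 to 2.31), under the minimum of reads, and -0.52 (-1.60 to 0.61). Tug1 had 36 and 45 H4K5ac-ChIP reads, 11 and 11 IgG-IP reads and 37 and 38 input reads, with 0.57 (-0.43 to 1.69) and 0.89 (-0.08 to 1.99), and its body was 0.19 (-0.35 to 0.75) and -0.68 (-1.12 to -0.23).

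The 3 genes of the last list were low. Airn, the paternally expressed antisense RNA of Igf2r, had 38 and 45 H4K5ac-ChIP reads against 20 and 18 IgG-IP reads, with -0.21 and 0.18. Nespas, antisense at the imprinted Gnas locus, had 10 and 13 reads against 13 and 12, with -1.52 (-2.87 to -0.21) and -1.03 (-2.28 to 0.23). Hoxa11as, antisense to a homeobox gene of limb and uterus, had 11 and 8 reads against 14 and 4, with -1.49 (-2.77 to -0.24) and -0.14 (-2.04 to 2.04), the second under the minimum of reads, and 92 input reads in FC against 32 in CON.

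**Figure D4:**
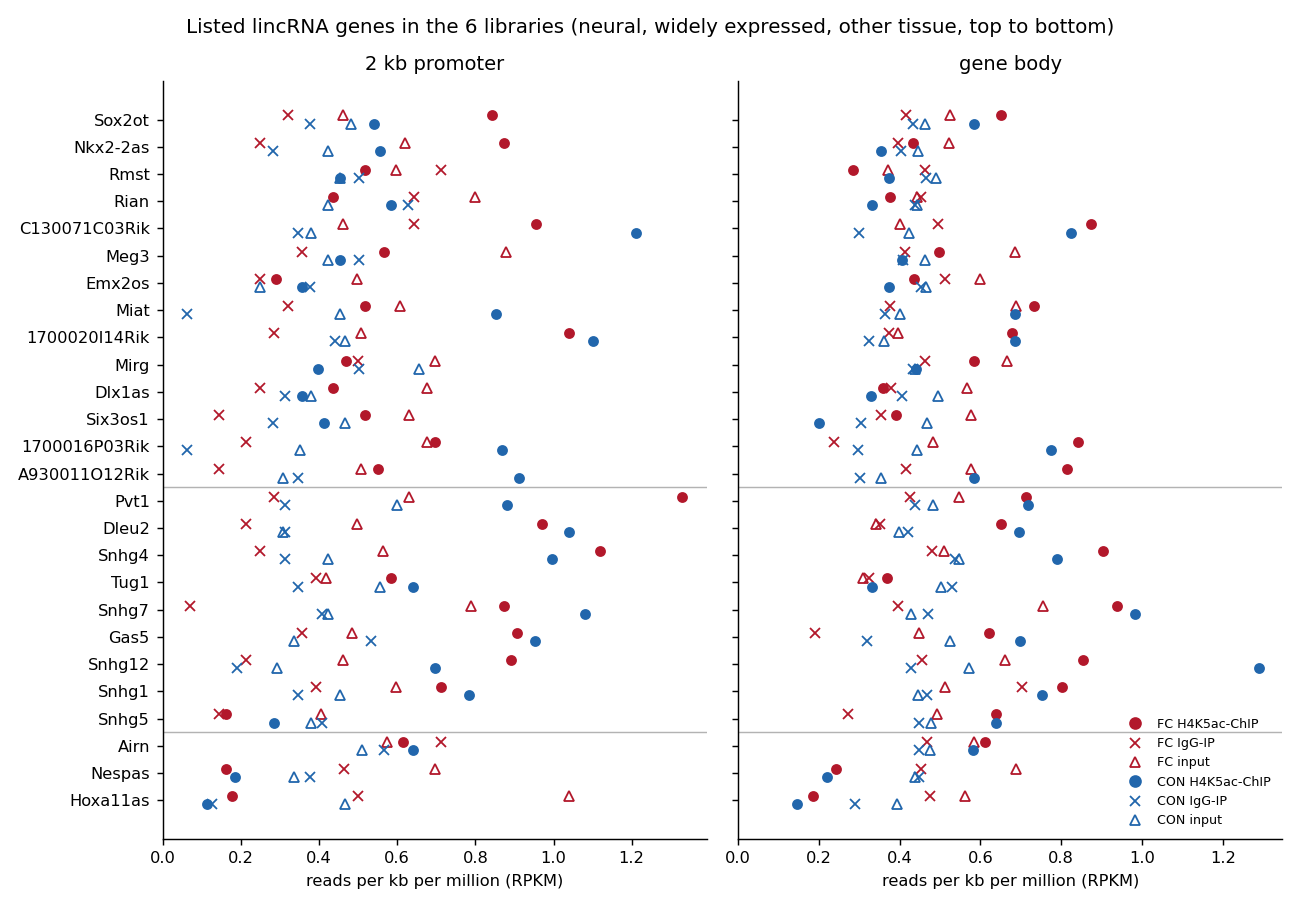
Level in RPKM at the 2 kb promoter (left) and gene body (right) of the listed lincRNA genes in the 6 libraries, with 14 neural genes at the top, 9 broadly expressed genes below them and 3 genes of other tissues or imprinted regions at the bottom, and 1 point per library (filled circles H4K5ac-ChIP, crosses IgG-IP, triangles input). The H4K5ac-ChIP points of Dleu2, at 0.971 RPKM in FC and 1.04 RPKM in CON, lie to the right of its controls at the promoter, and those of Nespas, at 0.162 and 0.185 RPKM, to the left of its controls.

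Small RNA genes lay inside few members, a miRNA gene in 29 and a snoRNA gene in 20 of the 1232. Over the 34653 annotated genes the counts were 464 and 290, which are smaller shares. The 29 lincRNA genes with a miRNA gene inside had promoter medians of 0.85 in FC and 0.98 in CON. The 20 with a snoRNA gene inside had 1.79 and 0.84, and 17 of them were CpG-rich. Over 18 of these promoters the median log2 ratio of FC to CON was -0.05 in H4K5ac-ChIP and -0.22 in IgG-IP.

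The highest promoters were named by the lower of the FC and CON ratios over IgG-IP, with at least 3 IgG-IP reads in each group. Since this rule uses these ratios, their values are descriptions. Among distal genes they were 1700113A16Rik, 4930471M09Rik, Gm17559, Gm14488 and Gm16727. Gm14488 had 174 FC and 161 CON H4K5ac-ChIP reads (2.82 and 2.29 RPKM), 13 and 10 IgG-IP reads and 56 and 28 input reads, with 2.60 (1.79 to 3.54) and 2.87 (1.95 to 3.95) over IgG-IP, and its body reached 2.90 and 2.44. Gm17559, with the imprinted retrogene Mcts2 as its nearest coding gene, had 151 and 149 H4K5ac-ChIP reads (2.44 and 2.12 RPKM), 4 and 11 IgG-IP reads and 59 and 24 input reads, with 4.10 (2.71 to 5.99) and 2.62 (1.74 to 3.65). 1700113A16Rik, CpG-rich and 35413 bp from Mef2d, had 68 and 77 H4K5ac-ChIP reads against 4 and 5 IgG-IP reads, and its FC and CON levels were both 1.10 RPKM. Among near genes they were Gm10575, Gm16600, 4833428L15Rik, 4930481B07Rik and 9230116N13Rik. Of these 5, 4 had the coding TSS downstream on the opposite strand (Cd151, Sorbs3, Dscaml1 and Ddx59). Gm10575 had 95 H4K5ac-ChIP reads in each group against 6 and 3 IgG-IP reads, with 2.85 and 3.84.

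Gm16869, chosen after its values were seen, stood apart at the other end. It lies at the start of chromosome 9 (chr9:3000282-3038313, minus strand), and its body held 90222 of the FC IgG-IP reads, which was 33.5% of those in all lincRNA bodies, against 13003 in FC H4K5ac-ChIP. In CON it held 79145 IgG-IP and 16613 H4K5ac-ChIP reads. Input was dense there too, with 30920 reads in FC (4.36% of those in all lincRNA bodies) and 84294 in CON (15.1%). With 1 read per position and strand, 5212 FC IgG-IP reads were left. Sums over near bodies turned on this gene, at a log2 H4K5ac-ChIP to IgG-IP ratio of -0.70 with it and 0.22 without it in FC. Levels over IgG-IP and input were therefore described by medians over genes. Sums were used only for the sides of the TSS, which include the upstream side of distal genes by CpG content.

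The question of the design was whether H4K5ac differed between FC and CON. Across the 1231 lincRNA genes other than Gm16869, the levels of the groups ranked genes alike, with Spearman's rho of 0.86 for promoters and 0.94 for bodies of the H4K5ac-ChIP libraries, against 0.39 for both in the IgG-IP libraries and 0.37 and 0.31 in the input libraries. At promoters the median log2 ratio of FC to CON was 0.08 for lincRNA genes and 0.07 for all genes. At least 2-fold higher levels in FC were found at 24 of 1184 lincRNA promoters (2.03%), and 2-fold lower levels at 6 (0.507%). The shares of all genes were 2.04% higher and 1.58% lower, so the higher count was at the background and the lower count under it. When the median of all genes was set to 0, 15 lincRNA promoters were higher (1.27%) and 9 lower (0.76%), against 1.62% and 1.99% of all genes. Less the input ratio of FC to CON the direction turned, at 44 higher (3.72%) and 149 lower (12.6%) of 1182, and it turned for all genes as well, at 4.95% and 10.4%. Less the IgG-IP ratio, 92 were higher (12.6%) and 54 lower (7.39%) of the 731 with enough reads, against 13.5% and 7.94% of all genes. The IgG-IP libraries alone, with their few reads and no minimum of IgG-IP reads, gave 83 higher (7.01%) and 140 lower (11.8%) of the same 1184 promoters. The shares of all genes were 6.37% and 10.9%. The input libraries gave 133 higher (11.2%) and 16 lower (1.35%), against 7.89% and 2.72% of all genes.

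By class, 18 of the higher promoters were among 670 near promoters (2.69%) and 6 among 514 distal ones (1.17%), against 2.04% of all genes, and the lower ones were 1 and 5. The near part was 9 of 15 with 1 read per position and strand, 9 of 15 with the median of all genes at 0 and 6 of 11 less the median of all genes of the same GC content, but 21 of 27 when reads were placed by their midpoint and 13 of 13 with at least 50 reads, so it moved either way with the setting. Divergent promoters gave 14 of 331 higher (4.23%) and none lower, and 12 of the 14 were CpG-rich. Opposite-strand promoters gave 2 of 328. The 24 higher promoters had a median of 53 H4K5ac-ChIP reads over both groups, against 91 for all lincRNA promoters, and a median GC content of 52.6%, and the 6 lower ones had 39.4%. The input ratio of FC to CON was above 0 at 17 of the 24, at a median of 0.31, which was no higher than over all lincRNA promoters, where it was above 0 at 912 of 1184 (77%), at a median of 0.40. The IgG-IP ratio was above 0 at 13 of the 24, at a median of 0.18, and at 528 of all 1184 (44.6%), at a median of -0.14. No body of the 24 genes was past 2-fold, and their median body ratio was 0.09.

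GC content moved with these ratios. In promoters under 40% GC the median FC to CON log2 ratio of lincRNA genes was -0.13 for H4K5ac-ChIP and -0.38 for input, with 1 higher (1.43%) and 3 lower (4.29%), against 2.93% and 5.36% of all genes in that band. From 40 to 45% GC the medians were -0.04 and 0.12, with 6 higher (2.26%) and 1 lower (0.377%), against 2.29% and 2.08% of all genes. From 45 to 50% GC they were 0.07 and 0.42, with 1 higher (0.284%) and 2 lower (0.568%), against 1.38% and 0.749% of all genes, so the higher share did not rise steadily with GC content. From 50 to 55% GC the medians of H4K5ac-ChIP and input were 0.14 and 0.58, with 7 higher (2.55%) and none lower, against 1.67% and 0.255% of all genes. At 55% or more they were 0.25 and 0.62, with 9 higher and none lower. All annotated genes gave the same H4K5ac-ChIP median of 0.25 at 55% or more, and 3.60% of them were higher and 0.15% lower, against 4.05% of the lincRNA promoters higher. Less the median of all genes of the same GC content, 11 lincRNA promoters were past 2-fold higher (0.929%) and 7 lower (0.591%), against 1.69% and 1.64% of all genes. Across genes, Spearman's rho of GC content with the FC to CON ratio was 0.27 for H4K5ac-ChIP, 0.45 for input and -0.00 for IgG-IP at promoters, and 0.30, 0.75 and -0.06 at bodies. The part of GC content in the higher promoters was not tested beyond these values.

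**Figure D5:**
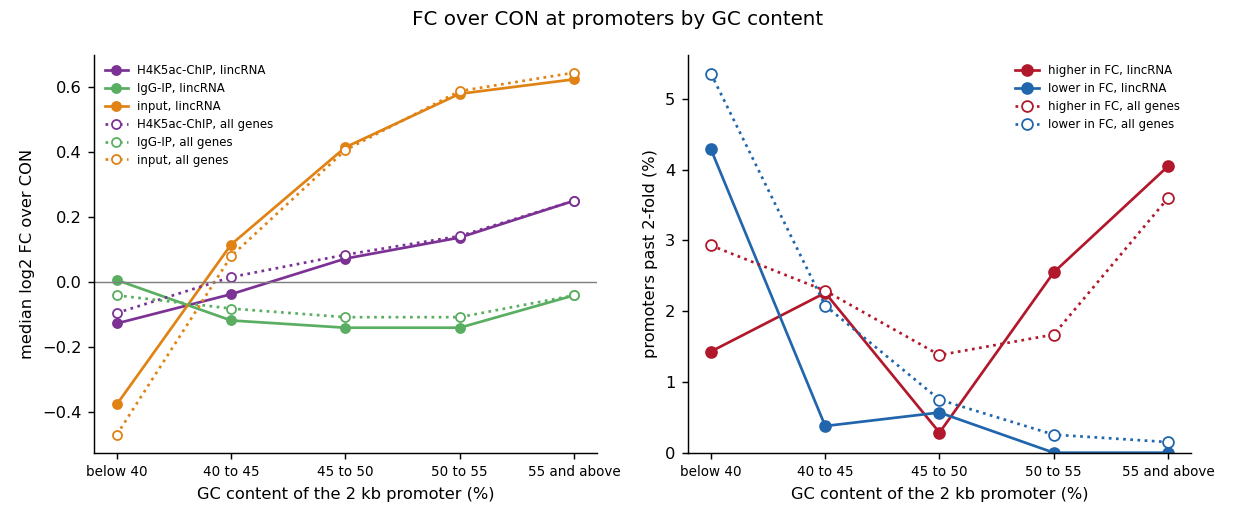
FC to CON comparison by GC content of the 2 kb promoter in 5 bands, as the median log2 ratio of each kind of library (left) and as the share of promoters past 2-fold in H4K5ac-ChIP (right), for lincRNA genes (filled points) and all annotated genes (open points, dotted lines). The H4K5ac-ChIP medians of lincRNA genes run from -0.13 under 40% GC to 0.25 at 55% or more and those of input from -0.38 to 0.62, and the lines of all genes run close to them.

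The genes with the largest ratios had few reads. 9130206I24Rik, divergent to the forkhead gene Foxd2 at 359 bp, had 18 FC and 4 CON H4K5ac-ChIP reads (0.291 and 0.0569 RPKM), 2 and 0 IgG-IP reads and 19 and 16 input reads, with a log2 ratio of 2.36 (0.75 to 4.38), and its body was 0.31 (-0.15 to 0.76). 4930526L06Rik, divergent to Ms4a13, had 17 and 5 reads, with 1.95 (0.45 to 3.75), and 4930544I03Rik had 19 and 8, with 1.43 (0.18 to 2.83). In both of these the H4K5ac-ChIP level was below IgG-IP in FC and in CON, at -0.86 and -1.99 (-3.92 to -0.26, under the minimum of reads) and at -1.28 and -2.46. Their bodies were at 0.09 and -0.21. The lowest were Gm16989, with 5 FC and 18 CON reads and -1.66 (-3.45 to -0.18), Gm17719, with 17 and 46 and -1.25 (-2.15 to -0.42), and Gm2824, with 15 and 37 and -1.12 (-2.09 to -0.22), all distal and under 45% GC. These 6 were chosen by the same ratio, which is given as a description.

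Deeper promoters among the higher ones were 4930481B07Rik and Gt(ROSA)26Sor, the second chosen after its values were seen. 4930481B07Rik, divergent to the zinc finger gene Zfp687 at 177 bp, had 77 FC and 42 CON H4K5ac-ChIP reads, 5 and 3 IgG-IP reads and 48 and 18 input reads, with a ratio of 1.06 (0.50 to 1.64) and a body at 0.56 (0.15 to 0.97). Gt(ROSA)26Sor, the broadly expressed locus used for transgenes, divergent to the chromatin gene Setd5 at 32 bp, had 72 and 35 H4K5ac-ChIP reads, 13 and 12 IgG-IP reads and 47 and 33 input reads, with 1.23 (0.62 to 1.85), and its body was -0.20 (-0.49 to 0.08). The FC to CON ratio of input at 4930481B07Rik was 1.04, as high as that of H4K5ac-ChIP, and at Gt(ROSA)26Sor it was 0.13.

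At gene bodies fewer genes were past 2-fold. FC was at least 2-fold higher at 5 of 1214 lincRNA bodies (0.412%) and 2-fold lower at 3 (0.247%), where the shares of all genes were 1.28% and 0.562%. Bodies held more H4K5ac-ChIP reads, at medians of 167 in FC and 182 in CON against 42 and 45 at promoters. More reads leave fewer genes past 2-fold by counting error alone, and the part of depth was not tested. The median ratio was 0.05 for lincRNA bodies and 0.04 for all genes. None of the listed genes was past 2-fold between FC and CON at its promoter or its body, and their list medians at promoters were 0.05 for neural, -0.10 for ubiquitous and -0.13 for the last list.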

How the data were processed

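The authors sequenced chromatin on a SOLiD system, aligned the reads to mm9 (NCBI Build 37) with Bioscope and deposited them as BED lines, 1 per aligned read, without normalization. The deposited score is a mapping quality and ran from 4 to 100. Every read was weighted alike. Samples were grouped by their labels, 1 library per group and antibody. Depth was 14023183 to 44394551 reads on chromosomes 1 to 19, the total used for scaling, and 11.49 to 17.87% of aligned reads repeated a position and strand. Chromosome lengths of the reads fitted the NCBIM37 genome and GENCODE annotation used here.

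Genes ran from their first to their last annotated base, with the 5′ end as TSS. A read was counted in every interval it overlapped by at least 1 bp. Level is reads per kb, scaled per library to a depth of 1000000 reads (RPKM). Counts and medians of ratios took genes with at least 20 reads in both libraries together, and a 2-fold difference was counted as a call. For the FC to CON ratios of IgG-IP and of input, this minimum was applied to the H4K5ac-ChIP reads of both groups, not to the libraries compared. Ratios of reads have exact (Clopper-Pearson) 95% binomial intervals, and ratios between the sides of the TSS over a control a normal approximation on the log scale from the 4 counts. Profiles used read midpoints and 1 read per position and strand. No test across samples was made, since there are no replicates. The code was tested on simulated data. Python 3.11.15, NumPy 2.4.6, pandas 2.3.3, SciPy 1.17.1 and matplotlib 3.10.9 were used.

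Named genes were the listed lincRNAs, the 5 highest promoters over IgG-IP of each class and the 3 largest FC to CON ratios in each direction. Gm16869 and Gt(ROSA)26Sor were added after their values were seen. The members and the lists were chosen with earlier results of these data known. The alternatives tried concerned repeated reads, read position, mapping quality, minimum reads, neighbour distance, overlap with coding genes, the densest input, scaling, control library, promoter length and GC content. Mature microRNA sequences came from RefSeq.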

Additional observations from a re-analysis of the deposited data

Results flagged for a closer look

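Of 44 named genes, 5 had promoter ratios of H4K5ac-ChIP over IgG-IP above 1 in one group and below 1 in the other, which is what singled them out. The difference between FC and CON on the log2 scale was 0.81 for Meg3 (0.67 in FC and -0.14 in CON), 0.31 for Emx2os (0.22 and -0.08), 0.70 for Snhg5 (0.18 and -0.52), -0.39 for Airn (-0.21 and 0.18) and -0.84 for Gm2824 (-0.23 and 0.61). Meg3 is the maternally expressed RNA of an imprinted region, Emx2os runs away from the cortical homeobox gene Emx2, Snhg5 hosts snoRNAs and Airn is antisense to Igf2r. These differences were not tested, since each group has 1 library per antibody. In 0 of the 5 did the counting intervals of both groups leave out 0. The promoters rest on 10 to 38 FC and 20 to 45 CON H4K5ac-ChIP reads.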

How the results depend on the processing

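Counts at 2-fold over IgG-IP are given as near and distal promoters, then near and distal bodies. Without genes that overlap a coding gene they were 145, 95, 82 and 71 in FC and 109, 102, 79 and 56 in CON, with fewer genes tested. The shares moved as well, from 56.5%, 46%, 40.7% and 36.7% to 65.3%, 40.1%, 35.3% and 28.3% in FC. In CON they went from 45.2%, 42.6%, 34.4% and 29.6% to 49.1%, 42.7%, 34.1% and 22.4%. The distal promoter share in FC was then under 43.9%, which is the share of all annotated genes with and without such overlap. A share of all genes without overlap was not computed. With the median of all genes set to 0 they were 169, 114, 99 and 59 in FC and 110, 75, 68 and 38 in CON. These were 25.7%, 22.4%, 14.6% and 11% of the genes tested in FC and 16.9%, 14.6%, 10% and 7.13% in CON. No share of all genes was computed with this setting. With input as control the FC counts were 150, 88, 77 and 45, or 22.1%, 16.8%, 11.3% and 8.36%. The share of all promoters over input was 18.2%, and none was computed for bodies. Promoters at least 2-fold higher in FC numbered 15 with 1 read per position and strand (9 near), 13 with at least 50 reads (13 near), 14 without coding overlap (10 near), 15 with the median at 0 (9 near), 8 with promoters of 5 kb (5 near), 4 with 5 kb on either side (1 near), 5 at gene bodies (2 near), 44 less the input ratio (32 near), 92 less the IgG-IP ratio (48 near) and 11 less the median at equal GC content (6 near). Those lower in FC numbered 11 with no minimum of reads, 2 with promoters of 5 kb, 1 with 5 kb on either side, 3 at gene bodies, 149 less the input ratio and 54 less the IgG-IP ratio. With 5 kb on either side the shares were 0.328% higher and 0.0821% lower, against 0.68% and 0.189% of all genes. With promoters of 5 kb they were 0.663% and 0.166%, and no share of all genes was computed there. It was also not computed for repeated reads, other minima of reads or coding overlap. Some settings tested fewer genes or reads, and the cause of these changes was not tested. Of 174 alternative values of these counts, 129 stayed within 1.5 times. Of 671 values of single genes and sums, 658 moved by less than their interval and 13 by more, of which 8 were summed ratios with input as control or 1 read per position and strand and 2 were the sides of opposite-strand genes over IgG-IP without Gm16869. The neighbour defined by any coding transcript and the sums without Gm16869 were added after seeing the data. No paired analysis was possible because each group had 1 library per antibody, which also left no replicate to leave out. Depth limited single genes most through IgG-IP, at a median of 9 and 12 reads per lincRNA promoter.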
